A study of Mus musculus with 32 samples.

Results

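Sterol synthesis and cholesterol export are read here from 8 genes. They are 4 enzymes of cholesterol synthesis (Hmgcs1, Idi1, Sqle and Lss), 2 regulators of that synthesis (Insig1 and Srebf2) and 2 transporters that move cholesterol out of the cell (Abca1 and Abcg1). They were chosen by name, with earlier results of these data known, and make up 8 of the 31053 genes of the deposited count table, in which each symbol occurs once. The wider gene lists used below were chosen in the same way. Shares of all genes given beside counts of called genes are therefore a description and not a test. The study compared stromal vascular cells (the non-adipocyte cells of fat) from the epididymal fat of mice by 3′ single-cell RNA sequencing, which counts each captured transcript by its unique molecular identifier (UMI). The mice were C57BL/6 wild type (WT) or CD169-DTR, a strain in which the diphtheria toxin receptor is made under the control of CD169 (Siglec1), a surface protein of some resident macrophages. Feeding lasted 16 weeks, on either normal or high fat chow, and all 4 groups, the WT groups too, received diphtheria toxin over 7 days. CD45+ and CD45- cells were sorted apart, most F4/80-high macrophages and Ly6C-high monocytes were left out, and the sorted fractions were mixed 1:1. The labels used here give no age and no number of mice.

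Each of the 4 groups was 1 library, so no difference between groups has a replicate check and no test was possible. The intervals below are exact 95% intervals that cover the counting error of UMIs only, not the variation between mice, and a difference between 2 libraries cannot be told apart from a difference between their conditions. After filtering, 3599 to 5627 cells per library remained (19328 in all), with medians of 6159 to 9151 UMIs per cell. Siglec1 itself, the gene that marks the cells to be ablated, had 3 UMIs over the gated cells of the normal-diet WT library, 93 in the normal-diet DTR library, 42 in the high-fat WT library and 124 in the high-fat DTR library. It was thus higher in both libraries labelled DTR, which goes against the direction of an ablation. The number of gated macrophages with resident macrophage markers went the other way. It was 12 of 79 in the normal-diet WT and 1 of 97 in the normal-diet DTR library, and 69 of 346 in the high-fat WT and 0 of 271 in the high-fat DTR library. What sets these values apart was not tested, so WT and DTR below name the label of a library and nothing more.

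Cell classes were gated by marker genes: a cell needed UMIs of at least 3 of the 8 markers of a class and a lead of 2 over the next of 17 classes. A mixed phagocyte class holds cells that met this for macrophage, monocyte or type 2 dendritic cell markers against all other classes. They had no lead of 2 among these 3 classes. The names are those of the markers, and between 13.3% and 18.4% of the cells of a library had no class. The edge of the gate held 174 of 6879 fibroblasts, 93 of 1928 vascular endothelial cells, 328 of 793 macrophages and 332 of 581 mixed phagocytes, so the phagocyte classes are less sharply cut. Doublet calls, 0.69% to 1.37% of the cells of a library against an expected 5.4%, were removed. Some barcodes occurred in more than 1 library, most of all between the 2 normal-diet libraries, which shared 157. In the macrophage class 38 of the 79 cells of the normal-diet WT library had such a barcode, and 37 of them were the shallower copy (median 607 UMIs). Levels are given for that class and library but no ratio, because 42 cells remained without these copies and 50 were required. Leaving out the shallower copies everywhere moved 0 of the 73 ratios examined beyond their counting intervals. Leaving out every barcode found in 2 or more libraries, deep copies too, moved 10 of the 73. Among these were 2 log2 ratios of DTR macrophages between diets, Abca1 (from -1.35 to -1.98) and Abcg1 (from -1.09 to -0.68).

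Cells make cholesterol from acetyl-CoA in a long chain of enzymes, most of whose genes are switched on by the transcription factor SREBP-2 when sterols in the membrane of the endoplasmic reticulum run low. When sterols are plentiful, INSIG proteins hold SREBP-2 and its escort SCAP in that membrane, and oxysterols activate the liver X receptors (LXR), which switch on Abca1 and Abcg1. Synthesis genes and export genes are therefore known to move in opposite directions with the sterol content of a cell. In adipose tissue, macrophages take up lipid from adipocytes and are known for a high expression of export genes.

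The genes lie on several chromosomes of the mouse genome (GRCm38, GENCODE M21 gene models, all protein-coding). Hmgcs1 (ENSMUSG00000093930) is at chr13:119690379-119708260, Idi1 (ENSMUSG00000058258) at chr13:8885501-8892451, Sqle (ENSMUSG00000022351) at chr15:59315077-59331192 and Lss (ENSMUSG00000033105) at chr10:76531588-76557138, all on the plus strand. Insig1 (ENSMUSG00000045294) is at chr5:28071363-28078662 and Srebf2 (ENSMUSG00000022463) at chr15:82147181-82205379, both on the plus strand. Abca1 (ENSMUSG00000015243) is at chr4:53030787-53159895 on the minus strand and Abcg1 (ENSMUSG00000024030) at chr17:31057675-31117988 on the plus strand. None overlaps another counted gene on its own strand, while Gm48342 overlaps Hmgcs1 and 4930483K19Rik overlaps Lss on the opposite strand.

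Promoter sequences are shown because most of the synthesis genes moved together in fibroblasts in both DTR-over-WT comparisons and between diets under the DTR label. Abca1 had the opposite sign in these comparisons, but not between diets in WT fibroblasts, and not in Dpp4-type cells on the normal diet (142 CPM in WT, 91.6 CPM in DTR). They run from 250 bases before the RefSeq start site to 50 after it, 5′ to 3′ on the strand of the gene (RefSeq, GRCm38.p6). The table held 6 of the 8 genes, all but Sqle and Abcg1. Capitals mark TCACCCCA, a core sterol regulatory element, and CCAAT, the NF-Y motif, read as ATTGG where it lies on the opposite strand. Both strands were searched, the motifs were chosen with the sequences in view, and no 2 matches of different motifs overlapped.
Hmgcs1, chr13:119690101-119690400, plus strand: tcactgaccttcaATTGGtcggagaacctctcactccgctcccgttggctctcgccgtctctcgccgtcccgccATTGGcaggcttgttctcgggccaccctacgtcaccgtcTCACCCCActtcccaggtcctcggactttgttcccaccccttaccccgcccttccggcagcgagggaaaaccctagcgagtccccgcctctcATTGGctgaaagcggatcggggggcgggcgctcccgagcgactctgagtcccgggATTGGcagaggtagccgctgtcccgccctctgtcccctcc
Idi1, chr13:8885356-8885655, plus strand: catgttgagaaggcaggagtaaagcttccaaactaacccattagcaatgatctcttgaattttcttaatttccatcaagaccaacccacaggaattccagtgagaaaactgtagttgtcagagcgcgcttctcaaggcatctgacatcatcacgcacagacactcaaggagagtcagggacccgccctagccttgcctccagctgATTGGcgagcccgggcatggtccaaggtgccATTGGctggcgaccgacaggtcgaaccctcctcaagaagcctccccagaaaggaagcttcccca
Srebf2, chr15:82147019-82147318, plus strand: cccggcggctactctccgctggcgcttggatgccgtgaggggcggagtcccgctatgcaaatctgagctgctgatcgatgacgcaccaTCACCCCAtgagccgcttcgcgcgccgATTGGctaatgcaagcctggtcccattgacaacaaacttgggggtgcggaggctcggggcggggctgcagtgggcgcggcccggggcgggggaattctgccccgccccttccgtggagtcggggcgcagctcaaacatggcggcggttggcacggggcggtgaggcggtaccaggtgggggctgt
Abca1, chr4:53159846-53160145, minus strand: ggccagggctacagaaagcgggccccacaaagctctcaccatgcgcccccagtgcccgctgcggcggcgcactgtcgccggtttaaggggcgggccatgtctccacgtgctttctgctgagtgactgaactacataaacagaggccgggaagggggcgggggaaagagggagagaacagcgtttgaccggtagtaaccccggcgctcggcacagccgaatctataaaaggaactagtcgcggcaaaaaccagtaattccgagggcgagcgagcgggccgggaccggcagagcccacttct
CCAAT was found in 5 of 5 promoters of the synthesis and regulation genes held (4 matches in Hmgcs1, 2 in Idi1 and 1 each in Lss, Insig1 and Srebf2) and in 37.4% of all 32851 promoters of the same length. TCACCCCA was found in 2 of these 5, in Hmgcs1 with its first base at position -137 from the start site and in Srebf2 at -162, and in 1.56% of all promoters. GGGCGG, the GC box bound by Sp1, was in all 5 (and in 35.7% of all promoters) and had 2 matches in Abca1, whose promoter held neither of the other motifs. These matches describe the letters in the window only.

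In fibroblasts, the largest class (1112, 1121, 1787 and 2859 cells in the normal-diet WT, normal-diet DTR, high-fat WT and high-fat DTR libraries, the order used for all lists of 4 values), the synthesis genes were lowest in the normal-diet DTR library and highest in the high-fat DTR library. Abca1 ran the opposite way, highest in the normal-diet DTR library and lowest in the high-fat DTR library. Levels are given as UMIs of the gene per 1000000 UMIs of the class in that library (CPM). The 6 synthesis and regulation genes together reached 280, 110, 200 and 430 CPM, and the 2 export genes together 106, 147, 54.1 and 21 CPM. The order of the libraries by summed synthesis genes (normal-diet DTR, high-fat WT, normal-diet WT, high-fat DTR) was not the exact reverse of their order by export genes, since normal-diet WT and high-fat WT kept the same order in both.

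Hmgcs1, which makes HMG-CoA at the start of the mevalonate pathway, stood at 80.4, 35, 62 and 167 CPM in fibroblasts (828, 514, 1256 and 6864 UMIs). Idi1, which interconverts the isoprene building blocks, stood at 50.9, 12.7, 22.5 and 62.1 CPM. Sqle, the squalene epoxidase, stood at 25.7, 10.6, 18.3 and 55.9 CPM. All 3 enzymes had the same order of libraries, with the normal-diet DTR library lowest and the high-fat DTR library highest. Lss, which closes the sterol ring to form lanosterol, was rare, at 2.33, 1.98, 1.73 and 8.68 CPM, and only its high-fat DTR level stood apart. The 4 enzymes together reached 159, 60.3, 105 and 294 CPM.

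Insig1, which retains SREBP-2 in the endoplasmic reticulum and is itself an SREBP target, stood at 37.7, 13.8, 31.4 and 43.4 CPM in fibroblasts. Srebf2, which encodes SREBP-2, stood at 82.7, 35.9, 64.3 and 92.5 CPM. Both regulators had the same order of libraries as the enzymes but a narrower spread at the upper end. Abca1, which hands cholesterol to apolipoprotein A-I, stood at 105, 142, 52.3 and 19 CPM. Abcg1, which hands cholesterol to high-density lipoprotein, was near the lower end of detection in fibroblasts, at 0.874, 4.98, 1.83 and 1.97 CPM. For Abcg1 only the normal-diet DTR library stood above the rest.

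**Figure D1:**
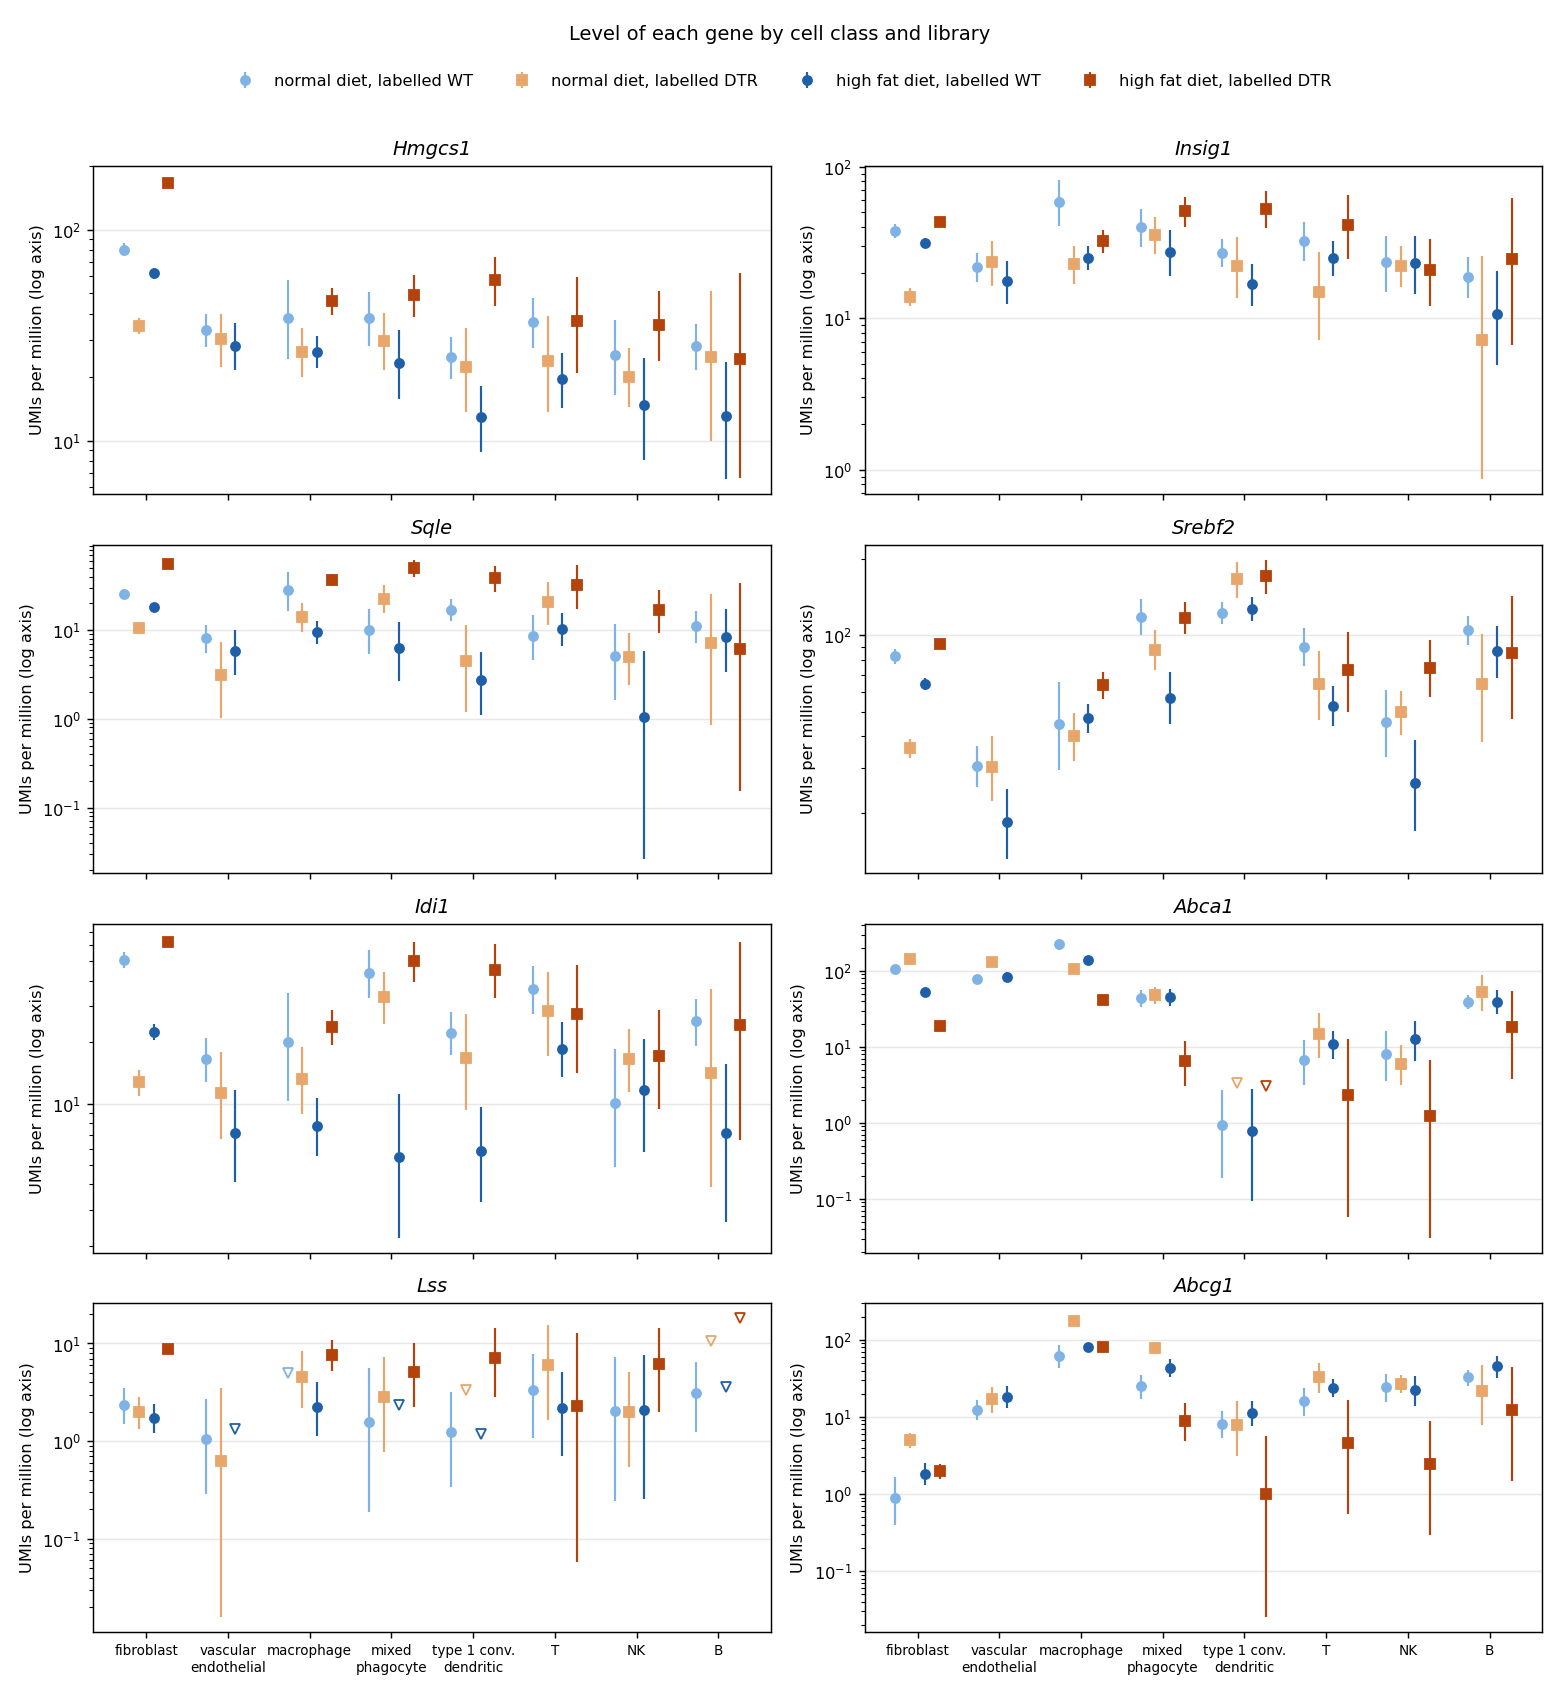
Level of each of the 8 genes (panels; vertical log axis, CPM) in 8 cell classes (horizontal axis) of the 4 libraries (colours). Points are sums over the cells of a class with exact 95% counting intervals, and open triangles are sums of 0 UMIs drawn at the level of 3 UMIs. In fibroblasts Hmgcs1 ranges from 35 to 167 CPM and is highest in the high-fat DTR library, where Abca1 is lowest at 19 CPM.

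On the normal diet, synthesis and regulation genes were lower in DTR than in WT fibroblasts. A gene was called different between 2 libraries when the fold was at least 1.5, the counting interval of the log2 ratio excluded 0 and the gene had at least 50 UMIs over both libraries. By this rule 5 of 6 synthesis and regulation genes were called lower and 0 higher, where 8.26% of all 11103 genes measured were called lower and 15.3% higher. The median log2 ratio (DTR over WT) was -1.24 over the 6 genes and 0.11 over all genes. Idi1 had the widest difference among the 6, 4.01-fold lower (interval of the log2 ratio -2.25 to -1.76). Insig1 was 2.72-fold lower (-1.44, -1.70 to -1.20) and Hmgcs1 2.29-fold lower (-1.20, -1.36 to -1.04). Sqle (2.42-fold) and Srebf2 (2.31-fold) were lower to a like degree, and Lss was not called (-0.24, -1.07 to 0.61). Of the exporters, Abcg1 was 5.69-fold higher (log2 ratio 2.51, 1.51 to 3.69), and Abca1 was 1.35-fold higher (0.43, 0.33 to 0.54), short of the fold required. Abca1 passed that fold only with every cell scaled to the same total, where its log2 ratio was 0.71.

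On the high fat diet the direction was the opposite. Of the 6 synthesis and regulation genes, 4 were called higher in DTR than in WT fibroblasts and 0 lower, where 33.6% of all 12637 genes measured were called higher and 7.41% lower. Their median log2 ratio was 1.44, against 0.34 over all genes. Trimmed-mean (TMM) scaling lowers every log2 ratio of this comparison by 0.34. The 4 called genes were the enzymes. Lss was 5.03-fold higher (log2 ratio 2.33, 1.83 to 2.87), Sqle 3.05-fold (1.61, 1.45 to 1.77), Idi1 2.76-fold (1.46, 1.32 to 1.61) and Hmgcs1 2.70-fold (1.43, 1.35 to 1.52). The regulators were not called: Insig1 was 1.38-fold higher (0.47, 0.33 to 0.60) and Srebf2 1.44-fold higher (0.53, 0.43 to 0.62), and these log2 ratios were 0.13 and 0.19 with TMM scaling. With every cell scaled to the same total they were 0.71 and 0.61, past 1.5-fold. Abca1 was 2.75-fold lower (-1.46, -1.59 to -1.32), and Abcg1 was not called (0.11, -0.46 to 0.72). The Abcg1 ratio changed sign with the gate and with the scaling, ranging from -1.59 to 0.94 over the other settings.

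Compared by diet, the same libraries gave narrower differences under the WT label than under the DTR label, both for the synthesis sum and for Abca1. In WT fibroblasts 1 of 6 synthesis and regulation genes was called lower on the high fat diet, where 11.2% of all genes were called lower and 6.38% higher. That gene was Idi1 (2.26-fold lower, log2 ratio -1.17, -1.36 to -0.99), and the 6 log2 ratios had a median of -0.41, against -0.08 over all genes. Abca1 was 2.02-fold lower on the high fat diet (-1.01, -1.14 to -0.89). In WT fibroblasts synthesis and export sums were thus both lower on the high fat diet, with log2 ratios of -0.48 and -0.97.

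In DTR fibroblasts 6 of 6 synthesis and regulation genes were called higher on the high fat diet, where 20.6% of all genes were called higher and 9.82% lower. The median log2 ratio was 2.19, against 0.15 over all genes. Sqle was 5.26-fold higher (log2 ratio 2.39, 2.16 to 2.64), Idi1 4.90-fold, Hmgcs1 4.77-fold and Lss 4.39-fold, while Insig1 was 3.14-fold and Srebf2 2.58-fold higher. Both exporters were called lower, Abca1 7.48-fold (-2.90, -3.02 to -2.78) and Abcg1 2.52-fold (-1.33, -1.81 to -0.86). The Abcg1 value moved with the gate, to -2.59 with the stricter one, -3.20 with classes from clusters and -0.58, under 1.5-fold, with the looser one. The 4 comparisons share libraries in pairs, so they are not independent of each other.

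**Figure D2:**
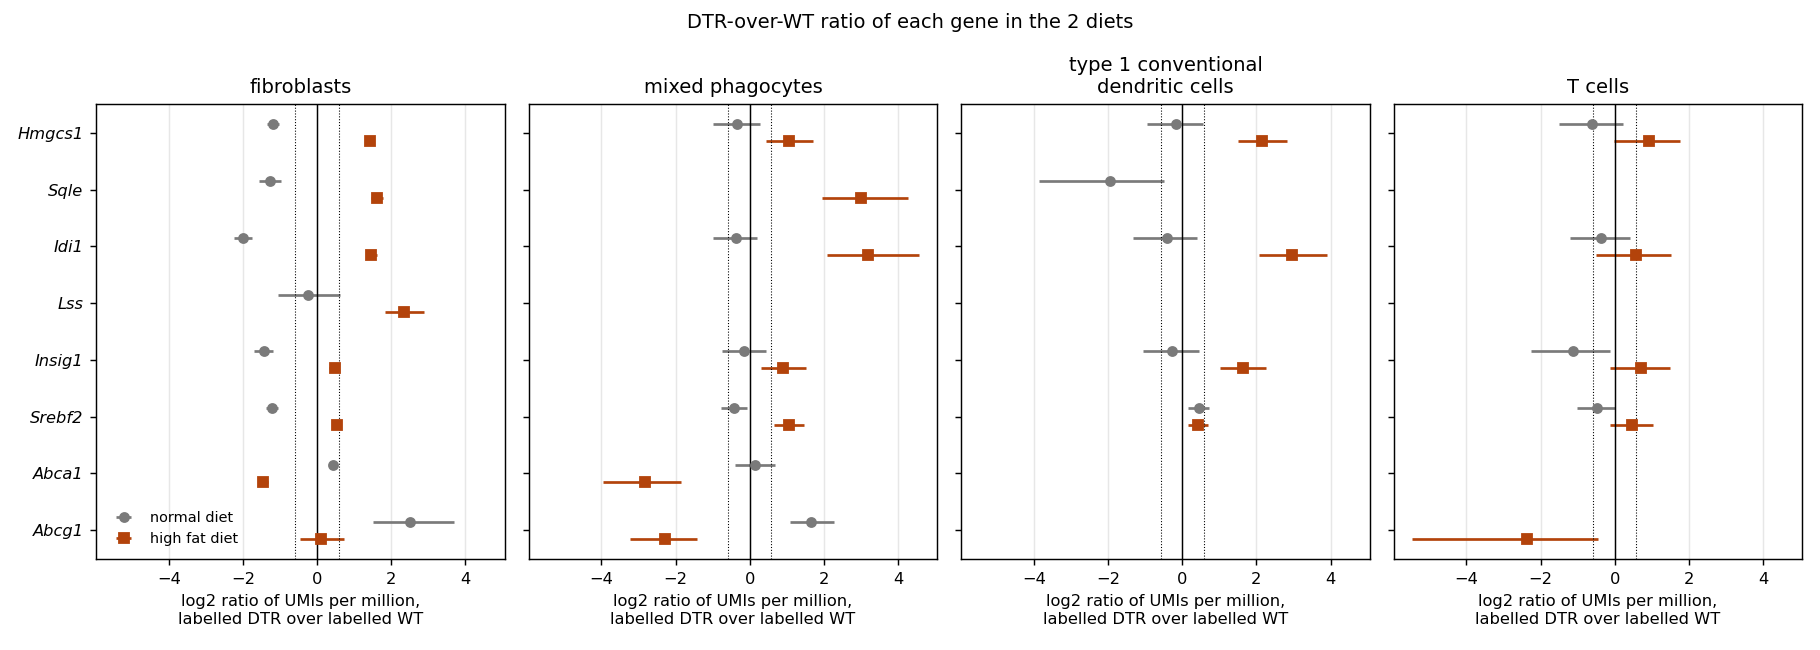
Log2 ratio of DTR over WT (horizontal axis) for each gene with at least 50 UMIs in both libraries together (vertical axis), on the normal diet (grey circles) and the high fat diet (red squares), in fibroblasts, mixed phagocytes, type 1 conventional dendritic cells and T cells. Bars are 95% counting intervals and dotted lines mark 1.5-fold. In fibroblasts Hmgcs1 lies at -1.20 on the normal diet and at 1.43 on the high fat diet, and Abca1 at 0.43 and -1.46.

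The share of fibroblasts with a UMI moved with the summed levels. Each cell was thinned to 5000 UMIs, which left out 169, 127, 198 and 224 shallower cells of the 4 libraries. At least 1 UMI of the 6 synthesis and regulation genes was then found in 59.3%, 36.5%, 49.9% and 74.7% of cells (69.9%, 60.6%, 69.6% and 89.4% without thinning). Cells with 6 or more such UMIs made up 3.71%, 0.302%, 1.83% and 9.75%, and cells with 0 made up 40.7%, 63.5%, 50.1% and 25.3%. Both the empty and the UMI-rich end of the distribution thus differed between libraries. Hmgcs1 alone was found in 27%, 15.3%, 20.4% and 44.9% of thinned cells (38.5%, 30.3%, 35.3% and 66.2% without thinning). Abca1 was found in 35.7%, 48.4%, 21.4% and 9.34% (52.2%, 69.3%, 37.5% and 19% without thinning). Type 1 conventional dendritic cells, with 0.78 to 0.929 CPM of Abca1 in the WT libraries and 0 UMIs in the DTR libraries, had it in at most 1% of cells without thinning, at medians of 6772 to 11302 UMIs against 9605 to 12895 in fibroblasts. Abcg1 was found in 0.424%, 1.91%, 0.881% and 0.721% of thinned fibroblasts (0.809%, 5.17%, 1.68% and 1.61% without thinning), a share too low to read as an order.

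**Figure D3:**
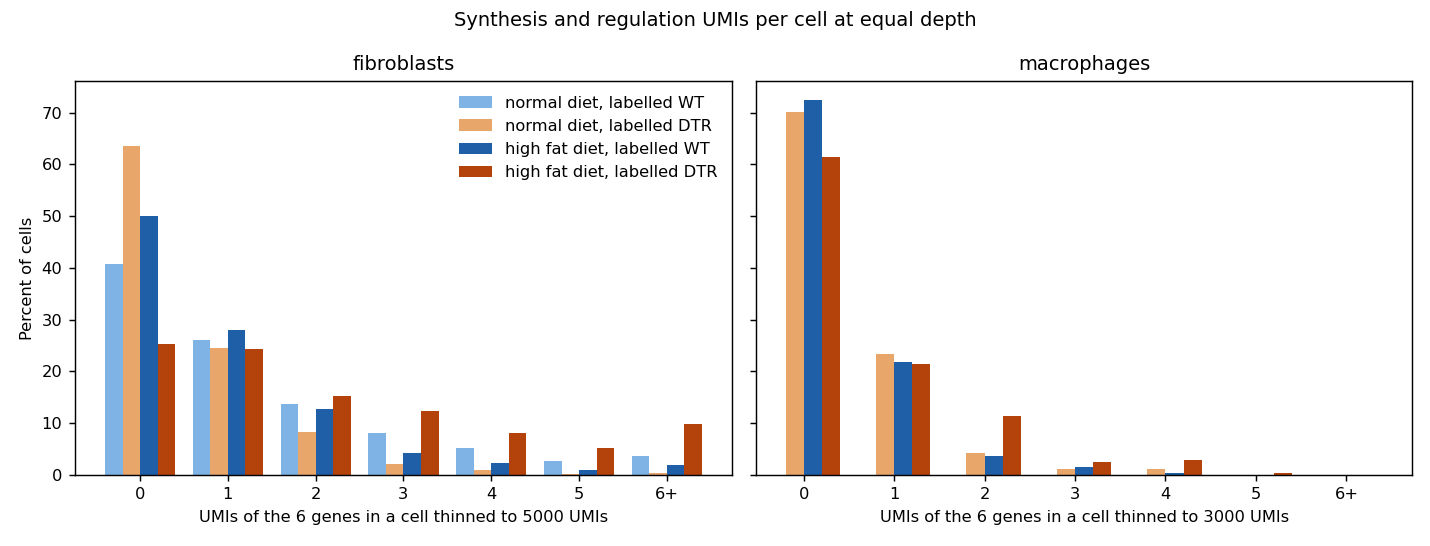
Distribution over single cells of the UMIs of the 6 synthesis and regulation genes after thinning, in fibroblasts (5000 UMIs per cell, 4 libraries) and macrophages (3000 UMIs per cell, 3 libraries, the normal-diet WT library not shown); the vertical axis is the percent of cells of a library and the horizontal axis the number of UMIs. In fibroblasts 63.5% of cells are at 0 in the normal-diet DTR library and 25.3% in the high-fat DTR library.

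Within fibroblasts the order of the libraries was much the same in each subset. Cells with markers of Dpp4-type progenitors (95 to 309 cells per library) held 234, 109, 250 and 449 CPM of the 6 synthesis and regulation genes and 143, 96.5, 56.1 and 14.3 CPM of the exporters. Cells with markers of Col15a1-type fibroblasts (804 to 1568 cells) held 297, 112, 201 and 426 CPM, and 102, 154, 53.3 and 21.9 CPM of the exporters. Fibroblasts with neither profile held 219, 100, 171 and 429 CPM, and 101, 145, 57.8 and 22 CPM of the exporters. The Dpp4 type differed in 2 places: its WT libraries had close synthesis levels, and its export level was highest in the normal-diet WT library. The summed level of 12 cell cycle markers in fibroblasts was 21.3, 162, 19 and 188 CPM, higher in both DTR libraries. Without cycling cells the synthesis sums were 280, 106, 201 and 433 CPM, and the 141 cycling fibroblasts of the high-fat DTR library had 390 CPM. The 8 adipocyte markers summed to 192, 224, 14.7 and 47.3 CPM in fibroblasts, and their part in the diet comparisons was not tested beyond leaving out the cells that held 2 or more of them, after which the summed log2 ratios of fibroblasts stayed within their counting intervals. Macrophage markers summed to 17.7, 18.5, 28.1 and 31.8 CPM in fibroblasts. Vascular endothelial markers summed to 14.8, 17.5, 12.9 and 54.2 CPM. The part of these 2 marker sets in the fibroblast ratios was not tested.

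Fibroblasts of the 4 libraries also fell into different clusters, drawn without these 8 genes and without the wider pathway lists. Cluster 5 held 61.9% of the normal-diet WT fibroblasts, cluster 8 held 58.2% of normal-diet DTR, cluster 3 held 64.4% of high-fat WT and cluster 0 held 64.5% of high-fat DTR. Within cluster 0 the synthesis sum was 130 CPM in the high-fat WT library (56 cells) and 469 CPM in the high-fat DTR library (1844 cells), with 58.8 and 22.7 CPM of the exporters. Within cluster 8 the synthesis sums of the normal-diet WT, normal-diet DTR and high-fat DTR libraries were 259, 112 and 632 CPM, and the export sums 86.4, 153 and 25.2 CPM. Within cluster 5 the normal-diet WT, normal-diet DTR and high-fat WT libraries had synthesis sums of 322, 96.1 and 223 CPM and export sums of 96.9, 223 and 57.4 CPM. The normal-diet DTR library thus had the lowest synthesis sum, and the high-fat DTR library the highest, of the libraries compared in these 3 clusters that held them. Clusters 3 and 15 went against the diet direction of the WT libraries: their synthesis sums were 150 and 218 CPM in the normal-diet WT library and 190 and 231 CPM in the high-fat WT library. Abcg1 was uneven over the clusters of the cells gated as fibroblasts in the high-fat DTR library, with 0.511 CPM in cluster 0 and 47.8 CPM in the 54 cells of cluster 7. With classes taken from clusters the DTR-over-WT log2 ratio of Abcg1 on the high fat diet was -1.59 in place of 0.11. The Abcg1 ratio thus depends on which cells count as fibroblasts, and the class of these 54 cells was not tested.

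The other enzymes of sterol synthesis followed the same directions in fibroblasts. A list of 16 further enzymes, from acetyl-CoA to the last sterol reductions, was used. On the normal diet 6 of 15 measured were called lower in DTR fibroblasts and 0 higher (median log2 ratio -0.55; 8.26% of all genes called lower). Among them were Sc5d, the lathosterol oxidase (log2 ratio -1.29), and Msmo1, the sterol methyl oxidase (-1.27). Under the high fat diet 15 of 16 were called higher and 0 lower (median 1.69; 33.6% of all genes called higher), all but Ebp. Fdft1, the squalene synthase, went from 10.9 to 61.7 CPM (log2 ratio 2.51), Cyp51, the lanosterol demethylase, from 34.8 to 155 CPM (2.15) and Tm7sf2 from 1.33 to 6.07 CPM (2.19). By diet, 3 of 15 were called lower and 1 higher in WT fibroblasts (median -0.28; 11.2% of all genes called lower and 6.38% higher), among them Acat2 at -0.99 and Sc5d at -0.79, with Mvd higher at 0.59. In DTR fibroblasts 15 of 16 were called higher on the high fat diet (median 2.07; 20.6% of all genes called higher), led by Fdps, the farnesyl diphosphate synthase, at 22.4 against 153 CPM (2.77).

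**Figure D4:**
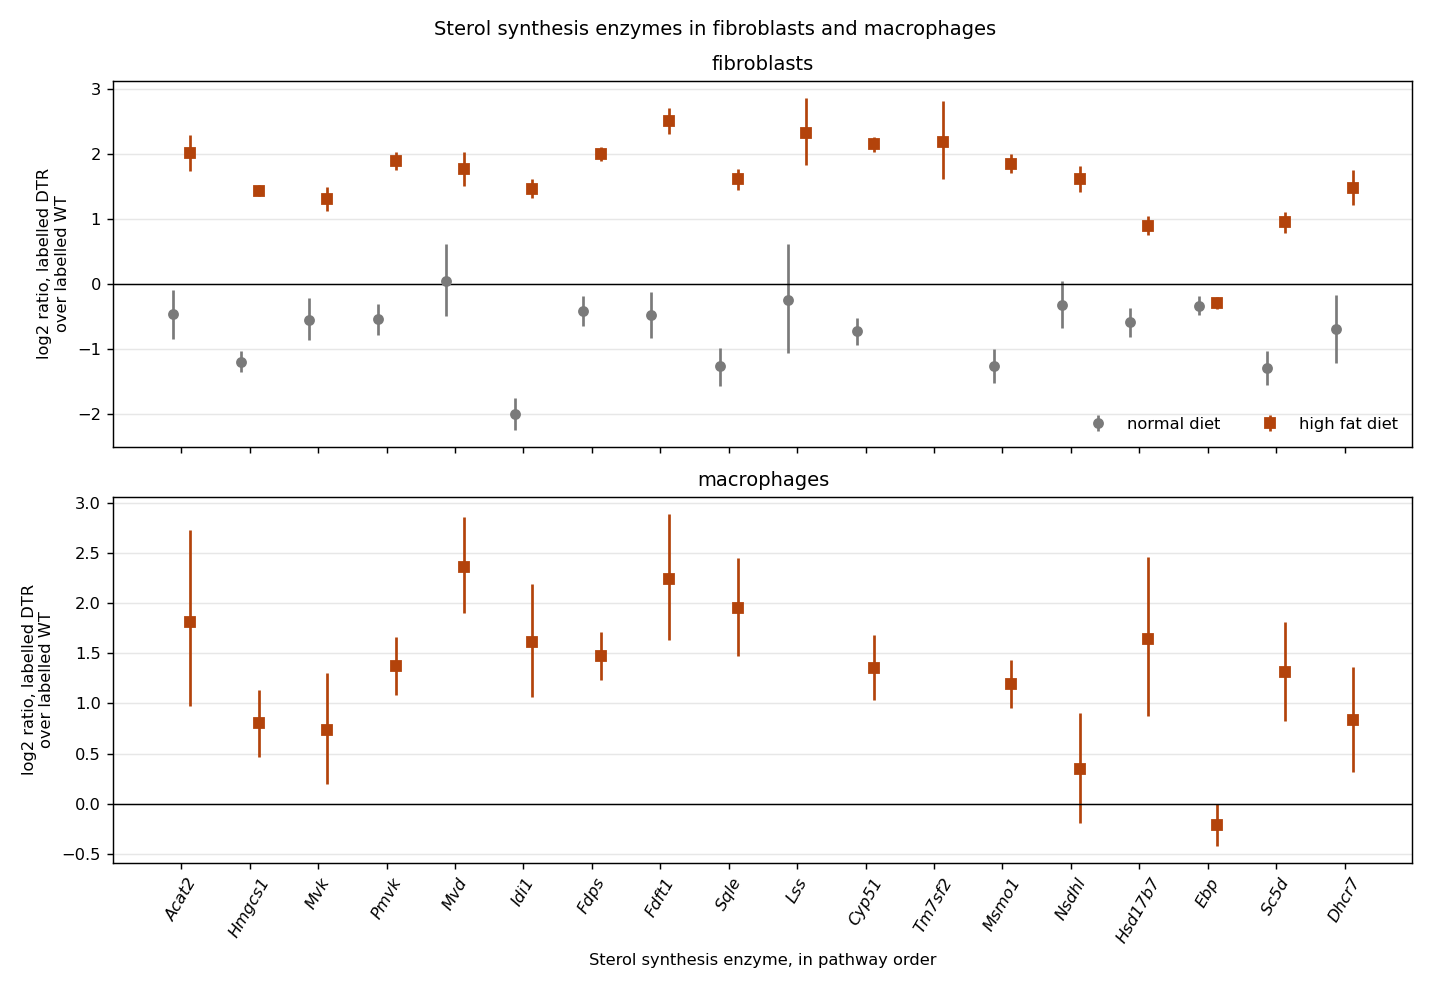
Log2 ratio of DTR over WT (vertical axis) for sterol synthesis enzymes in pathway order (horizontal axis; Hmgcs1, Idi1, Sqle and Lss are drawn among enzymes of the wider list, not all of which are drawn), in fibroblasts on the normal diet (grey circles) and the high fat diet (red squares) and in macrophages on the high fat diet. Bars are 95% counting intervals. In fibroblasts Fdft1 lies at 2.51 and Cyp51 at 2.15 on the high fat diet.

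Genes of sterol sensing and uptake were mixed on the normal diet, with 2 of 9 called higher and 2 lower in DTR fibroblasts. Over all genes 15.3% were called higher and 8.26% lower. Stard4, a cytosolic sterol carrier, went from 12.9 to 3.68 CPM (log2 ratio -1.81). Scarb1, a receptor for high-density lipoprotein (0.97), and Mylip, a ubiquitin ligase and LXR target (0.88), were higher. Of the 10 measured under the high fat diet, 3 were called higher and 0 lower, a share of higher calls near the 33.6% of all genes. They included Scarb1 at 1.92 and Stard4 at 1.40. Between diets in DTR fibroblasts 4 of 10 were called higher and 1 lower (median 0.05), where 20.6% of all genes were called higher and 9.82% lower. Stard4 went from 3.68 to 21.9 CPM (2.57), and the gene called lower was Mylip, from 19.4 to 5.9 CPM (-1.72). Fatty acid synthesis genes, most of them targets of SREBP-1, were called lower in 2 of 12 on the normal diet (Scd2 at -0.87 and Fads1 at -0.64), where 8.26% of all genes were called lower. In the high-fat libraries 7 of 12 were called higher in DTR than in WT fibroblasts (median 0.68; 33.6% of all genes), among them Elovl6 (1.41), Fasn (1.24) and Scd2 (1.22). In WT fibroblasts 6 of 12 were called lower on the high fat diet (median -0.59), with Scd2 at -2.02, where 11.2% of all genes were called lower. In DTR fibroblasts 3 of 12 were called higher and 1 lower between diets (median 0.42), shares of the list near those of all genes.

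Export and LXR-related genes other than Abca1 and Abcg1 had medians near 0 in fibroblasts, and most comparisons had calls in both directions. On the normal diet 2 of 12 were called higher in DTR fibroblasts, Apoc1 (1.28) and Lpcat3 (0.85), and 0 lower (median -0.07). Over all genes 15.3% were called higher and 8.26% lower. In the high-fat libraries 3 of 12 were called higher and 4 lower (median 0.02), where 33.6% of all genes were called higher and 7.41% lower. The share of lower calls was thus above that of all genes. Apoe, the apolipoprotein that accepts cholesterol, went from 1286 to 403 CPM (log2 ratio -1.67) and Pltp, the phospholipid transfer protein, from 361 to 163 CPM (-1.14), with Smpdl3a at -1.29. Abca5 (1.06), Lpcat3 (0.92) and Apoc1 (0.77) were higher. Between diets in DTR fibroblasts 3 of 12 were called higher and 3 lower (median -0.05), where 20.6% of all genes were called higher and 9.82% lower. Rxrb (0.93), Abca5 (0.75) and Pltp (0.63) were higher. Nr1h3, which encodes LXR alpha, went from 54.6 to 24.7 CPM (-1.15) and Apoe from 1607 to 403 CPM (-1.99), with Apoc1 at -2.69. In WT fibroblasts 2 of 12 were called higher between diets (Pltp at 1.76, Smpdl3a at 0.64) and 2 lower (Apoc1 at -2.18, Apoe at -0.64). Over all genes 6.38% were called higher and 11.2% lower in this comparison. Among oxysterol enzymes, Cyp27a1, the sterol 27-hydroxylase, was lower in DTR fibroblasts on both diets (104 to 36 CPM, -1.53, and 53.8 to 10.1 CPM, -2.41). Ch25h, the cholesterol 25-hydroxylase, was higher in DTR fibroblasts on both (log2 ratios 1.93 and 1.77), as was Cyp7b1, which hydroxylates oxysterols further (2.45 and 0.73). These 3 genes thus did not reverse with the diet. Over the whole list of trafficking, storage and oxysterol genes, 3 of 16 were called higher and 1 lower in DTR fibroblasts on the normal diet, and 5 of 16 higher and 1 lower on the high fat diet. Over all genes 15.3% were called higher and 8.26% lower on the normal diet, and 33.6% and 7.41% on the high fat diet, so these shares lie near the background.

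Macrophages had the highest export sum of all classes in each of the 4 libraries (285, 282, 221 and 124 CPM). In the normal-diet WT, normal-diet DTR, high-fat WT and high-fat DTR libraries (79, 97, 346 and 271 cells), Abca1 stood at 223, 107, 139 and 41.9 CPM. Abcg1 stood at 61.6, 175, 81.4 and 82 CPM, far above its level in fibroblasts. In the normal-diet DTR library the Abca1 level of macrophages lay below that of fibroblasts (142 CPM) and vascular endothelial cells (131 CPM). The synthesis and regulation sums were 190, 121, 118 and 210 CPM. The first of each 4 values rests on the 79 cells with shared barcodes described above, and in the normal-diet DTR library 34 of the 97 macrophages were the deep copies of shared barcodes.

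On the high fat diet 3 of 5 measured synthesis and regulation genes were called higher in DTR than in WT macrophages, where 24.8% of all genes were called higher and 8.06% lower. Sqle was at 9.61 CPM in WT and 37.2 CPM in DTR macrophages (3.87-fold, log2 ratio 1.95, 1.47 to 2.45). Idi1 was at 7.77 and 23.7 CPM (3.05-fold, 1.61, 1.06 to 2.19) and Hmgcs1 at 26.4 and 45.8 CPM (1.74-fold, 0.80, 0.47 to 1.13). Insig1 (24.9 and 32.4 CPM) and Srebf2 (47.2 and 63.8 CPM) were not called, and Lss had 11 and 32 UMIs, under the minimum. The median of the 5 log2 ratios was 0.80, against 0.23 over all genes. Abca1 was 3.32-fold lower (-1.73, -1.98 to -1.49), while Abcg1 did not differ beyond counting error (0.01, -0.20 to 0.22). The log2 ratio of Abca1 ranged from -2.70 to -1.38 over the other gates and settings, and that of Abcg1 from -0.41 to 0.55, so the direction of Abcg1 changed with the gate (0.45 stricter, -0.19 looser) and with the scaling (0.55 with every cell scaled to the same total, -0.21 with TMM). With TMM scaling Hmgcs1 was at 0.58, just under 1.5-fold.

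By diet in DTR macrophages, 4 of 5 synthesis and regulation genes were called higher on the high fat diet, where 4.59% of all genes were called higher and 5.15% lower. Sqle had the widest difference (log2 ratio 1.40), ahead of Idi1 (0.85), Hmgcs1 (0.80) and Srebf2 (0.67), against a median of -0.00 over all genes. Both exporters were called lower, Abca1 at -1.35 (-1.64 to -1.06) and Abcg1 at -1.09 (-1.31 to -0.88). Idi1 was the least stable of these: its log2 ratio was -0.04 with a stricter gate and 2.46 without shared barcodes. Hmgcs1 was at 0.34 with every cell scaled to the same total and 0.46 without cycling cells, and Srebf2 at 0.39 with classes from clusters and 0.56 with the stricter gate, all under 1.5-fold. Over all settings Abca1 ranged from -1.98 to -0.69 and Abcg1 from -1.47 to -0.65. Of the 16 other sterol enzymes, 13 of 15 measured were called higher in DTR than in WT macrophages on the high fat diet and 0 lower (median 1.35). Over all genes 24.8% were called higher and 8.06% lower in this comparison. Mvd was at 9.41 against 48.4 CPM (2.36) and Fdft1 at 2.24. Between diets in DTR macrophages 11 of 15 were called higher and 0 lower (median 0.99), led by Dhcr7 at 1.85. Among export and LXR genes on the high fat diet 4 of 11 were called lower and 0 higher in DTR macrophages, where 8.06% of all genes were called lower. Apoe went from 6883 to 895 CPM (-2.94). Fatty acid synthesis genes were called higher in 5 of 6 in the same comparison (median 0.88, with 24.8% of all genes called higher), with Fasn at 1.38. Between diets in DTR macrophages 1 of 10 export and LXR genes was called higher and 0 lower (median 0.20), and 0 of 6 fatty acid synthesis genes were called (median 0.32).

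Macrophage subsets were compared as well. In cells with markers of lipid-associated macrophages (71, 161 and 195 cells in the normal-diet DTR, high-fat WT and high-fat DTR libraries) the synthesis sums were 115, 130 and 203 CPM and the export sums 290, 225 and 127 CPM. The 69 cells of the high-fat WT library with resident macrophage markers had 88.7 CPM of the synthesis sum and 331 CPM of the exporters. Macrophages with neither profile held 93.5 CPM and 145 CPM in the high-fat WT library and 270 CPM and 95.7 CPM in the high-fat DTR library. The high-fat DTR library thus had the higher synthesis and the lower export sum in both subsets that could be compared, with Abca1 at 125 and 41.5 CPM (WT and DTR) in lipid-associated cells and 96.6 and 45.7 CPM in cells with neither profile. The make-up of the class differed: lipid-associated cells were 161 of 346 in the high-fat WT and 195 of 271 in the high-fat DTR library. The 69 resident-marker cells of the former, with 305 CPM of Abca1, had no counterpart in the latter (0 of 271), and the part of this in the whole-class values was not tested. Without cycling cells the synthesis sums on the high fat diet were 113 (WT) and 186 CPM (DTR) and the export sums 227 and 152 CPM. Fibroblast markers summed to 76.5, 99.2, 129 and 296 CPM in macrophages of the 4 libraries, with Pdgfra at 0 in both normal-diet libraries, and 6 erythroid markers to 223, 1942, 19.4 and 355 CPM. The part of these markers in the macrophage differences was not tested. Thinned to 3000 UMIs, 26.6%, 28.1% and 6.88% of macrophages in the normal-diet DTR, high-fat WT and high-fat DTR libraries had a UMI of Abca1 (53.6%, 58.7% and 22.9% without thinning). The thinned share of type 1 conventional dendritic cells with Abca1 was 0 in all 4 libraries, with upper limits of 1.27%, 4.11%, 1.74% and 2.74%. Abcg1 was found in 28.7%, 13.3% and 19.4% of thinned macrophages (71.1%, 38.2% and 42.4% without thinning).

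In vascular endothelial cells none of the measured synthesis genes was called on the normal diet, while Abca1 was higher in DTR cells. The class could be compared in 3 libraries only, with 937, 457 and 518 cells in normal-diet WT, normal-diet DTR and high-fat WT, because the high-fat DTR library held 16. Hmgcs1 stood at 33.3, 30.2 and 28.2 CPM, Insig1 at 21.7, 23.3 and 17.5 CPM and Srebf2 at 30.6, 30.2 and 18.4 CPM. On the normal diet 0 of 4 measured synthesis and regulation genes were called, where 5.53% of all genes were called higher and 3.27% lower. Abca1 was 1.70-fold higher in DTR cells (77.2 and 131 CPM, log2 ratio 0.77, 0.50 to 1.03). By diet in WT cells 2 of 4 were called lower on the high fat diet, Idi1 (-1.20, -2.10 to -0.39) and Srebf2 (-0.74, -1.29 to -0.21), where 6.18% of all genes were called lower and 3.33% higher. Abca1 stood at 83.2 CPM in the high-fat WT cells and was not called against 77.2 CPM on the normal diet. Of the other sterol enzymes 0 of 8 were called on the normal diet (median -0.20), and by diet 3 of 9 were called lower and 0 higher in WT cells (median -0.44), among them Acat2 (-1.63) and Sc5d (-0.75). Fatty acid synthesis genes were called lower in 5 of 10 by diet in WT cells (median -0.86), with Fasn, the fatty acid synthase, at -3.20. Adipocyte markers summed to 2467, 1903 and 230 CPM in these endothelial cells, erythroid markers to 20507, 6463 and 31226 CPM and fibroblast markers to 131, 146 and 307 CPM. The part of the erythroid and fibroblast markers in these values was not tested, nor that of the adipocyte markers in the lists. Without the cells holding adipocyte markers the diet ratio of Abca1 in WT cells was -0.27 in place of 0.11. Without them the Abca1 ratio on the normal diet was 0.55 and the Srebf2 ratio between diets -0.55, both under 1.5-fold.

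On the high fat diet mixed phagocytes had a higher synthesis sum and lower Abca1 in the DTR library, as fibroblasts and macrophages did. Unlike in fibroblasts, both regulators and Abcg1 were also called. The 131, 127, 120 and 203 mixed phagocytes held 251, 212, 119 and 322 CPM of the synthesis and regulation genes and 68.5, 126, 88.8 and 15.4 CPM of the exporters. On the normal diet 0 of 4 synthesis and regulation genes were called, where 23.4% of all genes were called higher and 11.8% lower, and Abcg1 was higher in DTR cells (24.9 and 78.8 CPM, log2 ratio 1.66, 1.08 to 2.28). In the high-fat libraries 5 of 5 were called higher in DTR cells, where 17.9% of all genes were called higher and 10.5% lower. Idi1 had 7 UMIs in WT and 78 in DTR cells (log2 ratio 3.20, 2.09 to 4.56) and Sqle 8 and 78 UMIs (3.01, 1.96 to 4.27). Srebf2 (1.05, 0.65 to 1.46), Hmgcs1 (1.06) and Insig1 (0.89) were closer to 2-fold. Abca1 (45.2 and 6.42 CPM, -2.82, -3.95 to -1.84) and Abcg1 (43.6 and 8.98 CPM, -2.28, -3.24 to -1.42) were both lower. No ratio of this class was examined under the other settings. The classes it borders on differed in size between libraries, with 39, 279, 47 and 388 monocytes and 244, 33, 156 and 24 type 2 conventional dendritic cells. The part of this in the ratios of mixed phagocytes was not tested.

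Type 1 conventional dendritic cells (300, 93, 214 and 134 cells) hold almost no Abca1. On the high fat diet 3 of 4 measured synthesis and regulation genes were called higher in their DTR library, where 9.44% of all genes were called higher and 3.43% lower. Hmgcs1 was at 12.9 CPM in WT and 57.4 CPM in DTR cells (log2 ratio 2.16, 1.51 to 2.82), Idi1 at 5.85 and 45.3 CPM (2.95, 2.08 to 3.90) and Insig1 had a log2 ratio of 1.64 (1.03 to 2.26). Srebf2 was not called (0.43). On the normal diet 1 of 5 measured was called, Sqle, which was lower in DTR cells (17 and 4.44 CPM, -1.94). Not called were Idi1 (-0.42), Insig1 (-0.28), Hmgcs1 (-0.16) and Srebf2 (0.44). The median of the 5 was -0.28, against 0.10 over all genes. No share of all genes called was taken for this comparison. Migratory dendritic cells had the highest Idi1 level of all classes in the 3 libraries that held 50 or more of them, 203 CPM in the normal-diet WT library, 88.5 CPM in high-fat WT and 228 CPM in high-fat DTR. T cells (254, 139, 479 and 202 cells) had synthesis sums of 207, 158, 129 and 213 CPM. Of their 4 measured synthesis and regulation genes, 0 were called on the high fat diet (median log2 ratio 0.64). On the normal diet 1 of 4 was called, lower in DTR cells (median -0.55). The median over all genes was 0.11 on either diet, and no share of all genes called was taken for T cells. Abcg1 of T cells had 55 UMIs in the high-fat WT library and 2 UMIs in the high-fat DTR library (23.8 and 4.58 CPM, log2 ratio -2.38, -5.46 to -0.46). NK cells had synthesis sums of 112, 116, 78.8 and 171 CPM. Mesothelial cells were the 1 class of 8 with higher Hmgcs1 in the normal-diet DTR library, where it was at 123 CPM against 37.8 CPM in WT cells (log2 ratio 1.71, 1.23 to 2.20), in 108 and 65 cells.

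Over all classes with enough cells in both libraries, the direction on the high fat diet was shared. The synthesis and regulation sum was higher in DTR cells in 8 of 8 classes measured (log2 ratios 0.38 to 1.46, median 1.11), with the lowest value in B cells, whose interval included 0. The 4 enzymes together were higher in 7 of 7 (0.96 to 2.79). The export sum was lower in 5 of 5 (-2.53 to -0.83, median -1.47), Idi1 was higher in 6 of 6 and Abca1 lower in 3 of 3. On the normal diet the classes differed: the synthesis sum was higher in 3 and lower in 5 of 8 classes (-1.35 to 1.17, median -0.21). Idi1 was lower in 6 of 6 classes and the export sum higher in 6 of 7, counted by sign and not by call. The Idi1 log2 ratios of vascular endothelial (-0.54), type 1 conventional dendritic (-0.42), mixed phagocyte (-0.38) and T cells (-0.36) were under 1.5-fold and not called. By diet, the synthesis sum was lower on the high fat diet in 10 of 10 classes of the WT libraries (-1.14 to -0.38, median -0.56) and higher in 8 of 8 classes of the DTR libraries (0.43 to 1.97, median 0.58). Idi1 was lower in 8 of 8 WT classes (median -1.52). The export sum was lower in 5 of 5 classes of the DTR libraries (-3.18 to -1.18), and in the WT libraries it was higher in 7 and lower in 2 of 9. The medians over all genes lay between -0.10 and 0.34 in these comparisons, so taking them off turns none of the signs of the high-fat, WT-diet and DTR-diet synthesis sums. The classes of a library were prepared and sequenced together and share its depth and its free RNA, so a like direction in many classes is not a repeat of the experiment.

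**Figure D5:**
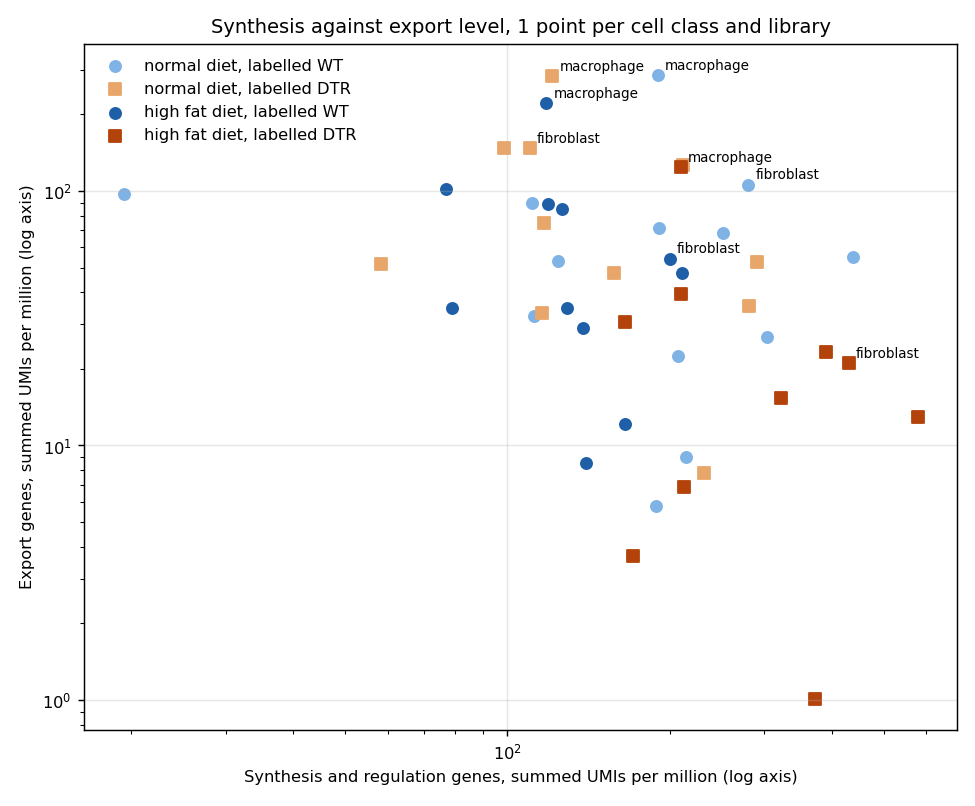
Summed level of the 2 export genes (vertical log axis, CPM) against the summed level of the 6 synthesis and regulation genes (horizontal log axis, CPM), 1 point per cell class and library, with fibroblasts and macrophages named. Fibroblasts lie between 110 CPM (synthesis) and 147 CPM (export) in the normal-diet DTR library and 430 and 21 CPM in the high-fat DTR library, and macrophages lie highest on the export axis in each library.

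The genes with patterns most like these were sought among 5908 genes with a mean of at least 20 CPM, by Pearson correlation of log2(CPM + 1) over the 45 sums of a class in a library. These sums share libraries and depth, so the values are a description. Fdps followed the summed enzymes most closely (r = 0.77), then Htra2 (0.65), Tmem63b (0.64) and Spr (0.62), with Srebf2 at 0.61 and Insig1 at 0.50. Abca1 and Abcg1 stood at -0.14 and -0.31 against the enzymes. Blvrb (0.82), Apoe (0.79) and Degs1 (0.77) were closest to Abca1, and Iqgap1 (0.74), Malt1 (0.73) and Osbpl8 (0.72) to Abcg1. The 2 exporters correlated with each other at only 0.28 over the 45 sums, Abca1 being high in fibroblasts, endothelial cells and macrophages and Abcg1 in macrophages and low in fibroblasts.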

How the data were processed

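Values are raw UMI counts per gene and cell, deposited by the authors as filtered matrices of 4 libraries joined in 1 aggregation; 8 sample records (4 indices on 2 lanes) belong to each library. Per the submitters' processing notes, Cell Ranger 3.1.0 and mm10 were used; further counting settings are not given in the sources used here. Barcode suffixes were tied to libraries by the order of the authors' aggregation list. No per-sample column was left unused (0).

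Cells were kept from 300 detected genes upward and with no more than 10% of UMIs from mitochondrial genes, doublet calls (scanpy 1.11.5) removed, and classes gated by marker UMIs. Counts were summed per class and library (at least 50 cells, also without shallower copies of shared barcodes; the latter was required after seeing the data). Intervals are exact: Poisson for CPM, conditional binomial for ratios, Clopper-Pearson for shares. They cover counting error only; with 1 library per group no p-value exists. The ratio step was run on simulated counts that held counting error only. That run therefore cannot show how the intervals fare with variation between cells, mice or libraries. Totals of 33390225 to 64766718 UMIs per library set the precision.

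Besides the 8 genes, the text names genes from each pathway list's 3 highest and 3 lowest ratios among those called in fibroblasts, endothelial cells and macrophages, and likeness partners by r. The 8 genes and all lists (16 sterol enzymes, and 4 others, 72 genes in all) were chosen with earlier results of these data known. Alternatives covered the cell filter, gate, clusters, doublets, cycling cells, adipocyte-marker cells, shared barcodes and scaling, with TMM from edgeR 4.0.16. Some genes of the lists count in the totals but are not reported here.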

Additional observations from a re-analysis of the deposited data

Results flagged for a closer look

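In fibroblasts the log2 ratio of DTR over WT pointed in opposite directions on the 2 diets for 3 sterol synthesis enzymes. The ratio on the high fat diet minus that on the normal diet was 2.63 for Hmgcs1, 2.88 for Sqle and 3.46 for Idi1, and each of these genes was called lower on the normal diet and higher on the high fat diet. In mixed phagocytes Abcg1 was called higher in DTR cells on the normal diet and lower on the high fat diet, a difference of -3.94. No ratio of mixed phagocytes was examined under the other settings, and 332 of the 581 cells of this class lay at the edge of the gate. With 1 library per group these differences between diets were not tested.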

How the results depend on the processing

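No paired analysis was possible because each group is 1 library, and for the same reason no replicate could be left out. The other settings were run on 73 ratios of fibroblasts, macrophages and vascular endothelial cells only. Over these and 12 alternative settings, 786 of 876 values stayed within the counting interval, 89 moved beyond it and 1 called value changed sign. That was Idi1 between diets in DTR macrophages, 0.85 with the gate as used and -0.04 with the stricter gate. The 2 settings on shared barcodes were chosen after seeing the data. Classes under 50 cells in a setting gave no value. A further 8 ratios that were not called crossed 0 in at least 1 setting, among them Insig1 between diets in DTR macrophages (0.51, lowest -0.05) and Srebf2 in endothelial cells on the normal diet (-0.02, highest 0.45). The summed ratios kept their direction in fibroblasts and macrophages in all 12 settings. In endothelial cells the export sum between diets (0.18) ranged from -0.19 to 0.26.

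For the synthesis and regulation sum in fibroblasts, the log2 ratio of DTR over WT on the normal diet was -1.35, with -1.44 without shared barcodes, -1.44 with every cell scaled to the same total and -1.46 with TMM scaling. Under the high fat diet it was 1.10, with 1.30 (cells scaled) and 0.76 (TMM). Between diets it was -0.48 in WT, with -0.41 (TMM), and 1.97 in DTR fibroblasts, with 2.08 without shared barcodes, 2.20 (cells scaled) and 1.82 (TMM). For the export sum the values were 0.47, with 0.75 (cells scaled) and 0.35 (TMM), on the normal diet, and -1.37, with -1.02 and -1.70, on the high fat diet. Between diets they were -0.97, with -0.84 (cells scaled), in WT, and -2.81, with -2.61 and -2.96, in DTR fibroblasts. In macrophages the synthesis sum on the high fat diet was 0.83, with 0.67 (stricter gate) and 0.62 (TMM), and between diets in DTR cells 0.80, with 0.48 (stricter gate) and 0.55 (cells scaled). The macrophage export sum on the high fat diet was -0.83, with -0.48 (stricter gate), -1.05 (looser gate), -1.38 (clusters), -0.58 (without cycling cells), -0.68 (without shared barcodes) and -1.05 (TMM). Between diets it was -1.18, with -0.66, -1.43 and -1.59 for the stricter gate, looser gate and clusters. The cause of these shifts was not tested. Abcg1 on the high fat diet had no stable direction in fibroblasts (-1.59 to 0.94) or macrophages (-0.41 to 0.55).

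Counts of the 16 other sterol enzymes called were lower where the rule was stricter: in fibroblasts on the normal diet 6 called lower became 3 at 2-fold, and between diets in WT fibroblasts 3 lower and 1 higher became 0 and 0. In macrophages 13 called higher on the high fat diet became 6 with a minimum of 200 UMIs, and 11 between diets in DTR cells became 6 (200 UMIs) and 7 (2-fold). In endothelial cells 3 lower between diets became 1 with either, and 0 higher on the normal diet became 1 with no minimum. Depth limits Lss most, which reached 50 UMIs over 2 libraries in fibroblasts only.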
